A study of Arabidopsis thaliana with 9 samples.

Results

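The 3 arrays described here measured transcript levels in root tips of wild-type Arabidopsis thaliana, accession Col-0, and they are 3 of the 9 arrays of the study. They were chosen by their sample label alone, and every probe set other than the array maker's controls was kept, which gave 22746 of the 22810 probe sets in the table. Each value below is a deposited log2 RMA value, so a step of 1 is a factor of 2 in signal, and each mean is over the 3 arrays. The study as a whole set these wild-type tips beside an erf115 mutant and an ERF115 overexpressor, with 3 arrays each, and no level is compared between genotypes here. The wild-type seedlings were untreated, 5 days old and grown on nylon mesh at 21 °C with 16 h of light and 8 h of darkness. Tips of 3 mm were cut with a scalpel, and 100 ng of their RNA was amplified from the 3′ end and labelled with biotin. The labels number the replicates but do not say whether they came from separate cultures, so a spread between arrays may be technical.

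A root tip holds several zones in a short length. A cap covers a meristem in which a small stem cell niche feeds files of dividing cells, and behind it cells elongate and then differentiate, with root hairs, a lignified xylem and a sealed endodermis appearing last. Dividing and growing cells invest heavily in ribosomes, mitochondria and cytoskeleton, while secreted enzymes such as class III peroxidases, expansins and xyloglucan endotransglucosylases loosen or stiffen the walls of elongating and differentiating cells.

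Signal on such an array ranks probe sets and not molecules, because probes bind their targets with different strength. The size of that limit could be read from 144 genes that had at least 2 probe sets. The probe sets of such a gene differed by a median of 1.89 log2, and by at least 2 log2 for 70 of the 144. Ranks of single genes are therefore approximate at that scale. The spread of 1 probe set between arrays compares the same probes, but it too can differ between probe sets of 1 gene. Those of the gene DME, for example, had an SD of 0.04, 0.20 and 0.24. In a tip of many cell types, a low signal from fewer cells of a type and from less RNA per cell cannot be told apart.

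Of the 22746 probe sets, 13513 had 1 gene in the platform's annotation, 503 had several and 8730 had none there and are unnamed here. The named ones were dimmer, with a median of 4.62 against 5.68 for the unnamed. Of the 100 brightest probe sets, 41 had 1 gene, 14 had several and 45 were unnamed, so the genes named below are only part of the top. Probe sets whose name marks shared probes numbered 1061, and for these a signal may come from related genes.

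The 3 arrays resembled each other closely. Over all probe sets the correlation was 0.997 between replicates 1 and 2, 0.996 between replicates 1 and 3 and 0.996 between replicates 2 and 3, as a description across probe sets. The medians of the arrays were 5.08, 5.04 and 5.11. The median of the means was 5.08, and the means ran between 1.71 and 13.29. The difference between the 3′ and 5′ control probe sets of actin was 2.20, 2.08 and 2.31 log2 in replicates 1 to 3 by one pair of probe sets and 4.48, 4.27 and 4.21 by another. That of GAPDH was 0.23, 0.21 and 0.17 by one pair and 0.68, 1.05 and 0.91 by another. No array was highest in all 4 pairs.

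The table holds no detection calls, so background was read from control probe sets. The Bacillus TrpnX controls had values of 2.04 to 2.48, and bioB, the weakest of the bacterial hybridisation controls, had 2.86 to 4.32. A mean below 4 is called near background here. This held for 8989 probe sets, or 39.5% of all. At the other end, 700 probe sets, or 3.08%, had a mean of at least 10, within or above the range of bioD, which was 8.63 to 10.77. The brightest 10% began at 8.47 and held 2275 probe sets. The middle 10% lay between 4.58 and 5.51 and held 2274.

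**Figure D1:**
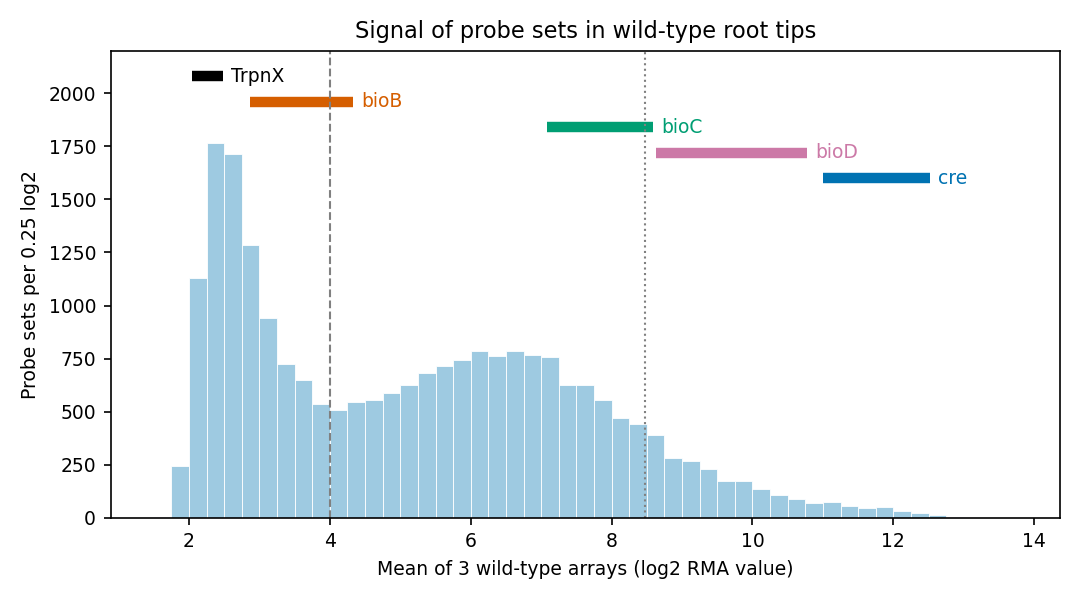
Number of probe sets in steps of 0.25 log2 by their mean over the 3 wild-type arrays, with bars for the lowest to highest value of the control probe sets TrpnX, bioB, bioC, bioD and cre. The dashed line is at 4 and the dotted line at 8.47, where the brightest 10% begins. A tall peak of dim probe sets, highest between 2.25 and 2.5 with 1765 probe sets, stands over the TrpnX and bioB ranges, and a broad second hump lies to the right of it.

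Among the named genes, those for ribosomal proteins filled the top of the range. Of the 25 named genes with the highest signal, 21 encode ribosomal proteins, as do 69 of the 100 highest named genes. Brighter probe sets had several genes or no name, with means of up to 13.29 and 12.95. At the head of the named genes stood AT3G60245, a protein of the large subunit, with 12.82, 12.80 and 12.80 on replicates 1, 2 and 3. AT1G52300, also of the large subunit, had 12.77, 12.84 and 12.72, and AT5G20290, of the small subunit, had 12.73, 12.67 and 12.76. All 3 arrays gave the same picture for these genes, with an SD of 0.01, 0.06 and 0.05. AT3G49910, of the large subunit, had 12.65 on each array. AT3G09200, which encodes the acidic stalk protein P0, averaged 12.52 ± 0.01 (SD, n = 3).

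The family as a whole was high. The lists held 231 genes, of which 134 had a probe set naming them alone. Of these 134, 108 were in the brightest 10%, or 80.6%, against 10% of all probe sets, and 93 had a mean of at least 10. The 86 proteins of the large subunit had a median of 11.23, with 69 in the brightest 10%, and of the 48 of the small subunit 39 were there. A minority of copies stood apart from this block. A further 9 lay between 4 and the brightest 10%, and 17 were near background. The lowest were AT2G39590, a small-subunit gene at 2.10 ± 0.10, and AT4G16030, a large-subunit gene at 2.13 ± 0.15 (SD, n = 3 each). Most Arabidopsis ribosomal proteins are encoded by several near-identical genes, and probes may not separate all copies.

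The remaining 4 of the 25 highest named genes do other work. JAL34, a jacalin-related lectin, had 12.43, 12.58 and 12.40. PYK10, the main beta-glucosidase of ER bodies, had 12.02, 12.15 and 12.01. Both belong to the chemical defence of the root, in which PYK10 in ER bodies and lectins form a complex when cells are damaged. cICDH, the cytosolic NADP-dependent isocitrate dehydrogenase, had 12.21, 12.28 and 12.37, and AT1G78040, a secreted protein of the Ole e 1 and extensin family, had 12.22, 12.22 and 12.17. For each of these 4 genes the 3 arrays lay within 0.18 log2 of each other.

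The other genes of the ER body system did not all stand so high. NAI2, a protein needed for ER bodies to form, had 11.09, 11.12 and 11.16. JAL33, another lectin, averaged 9.55 ± 0.06, and NAI1, the transcription factor that controls the system, averaged 7.02 ± 0.16 (SD, n = 3 each). JAL22 at 3.21 and JAL23 at 2.20, further lectins of the list, were near background. Of 7 genes measured out of 16 listed, 4 were in the brightest 10%.

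Energy metabolism and the cytoskeleton were the next groups. Of 54 probe sets for 53 genes of the respiratory chain and ATP synthase, 47 were in the brightest 10% and 2 near background, with a median of 10.15. CYTC-1, which encodes cytochrome c, stood highest with 11.80, 11.81 and 11.81. AT3G52730, a small subunit of the cytochrome bc1 complex, averaged 11.42 ± 0.01. SDH2-1, a gene for the iron-sulphur subunit of succinate dehydrogenase, had a probe set at 2.65 ± 0.11 and another at 9.81 ± 0.07 (SD, n = 3 each), so its level is not settled. Of 7 glycolytic genes measured, 6 were in the brightest 10%, led by TPI, triose phosphate isomerase, at 11.78, and GAPC2, cytosolic glyceraldehyde-3-phosphate dehydrogenase, at 11.46. Only 7 of the 17 glycolytic genes listed had a probe set of their own.

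Tubulins had a median of 9.47 over 7 genes, 5 of them in the brightest 10%. TUA6, an alpha-tubulin, had 11.16, 11.29 and 11.03, and TUA1, an alpha-tubulin best known from pollen, had 5.11, 5.04 and 5.19. The 2 actins measured were ACT11 at 8.13 and ACT12 at 2.77. All 9 histone genes measured encode H2B, the core histone that pairs with H2A, and they had a median of 7.84. HTB4 was highest with 10.96, 10.76 and 10.93, and HTB11 followed with 9.47, 9.53 and 9.45. Of these 9, 4 were in the brightest 10% and 2 near background.

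**Figure D2:**
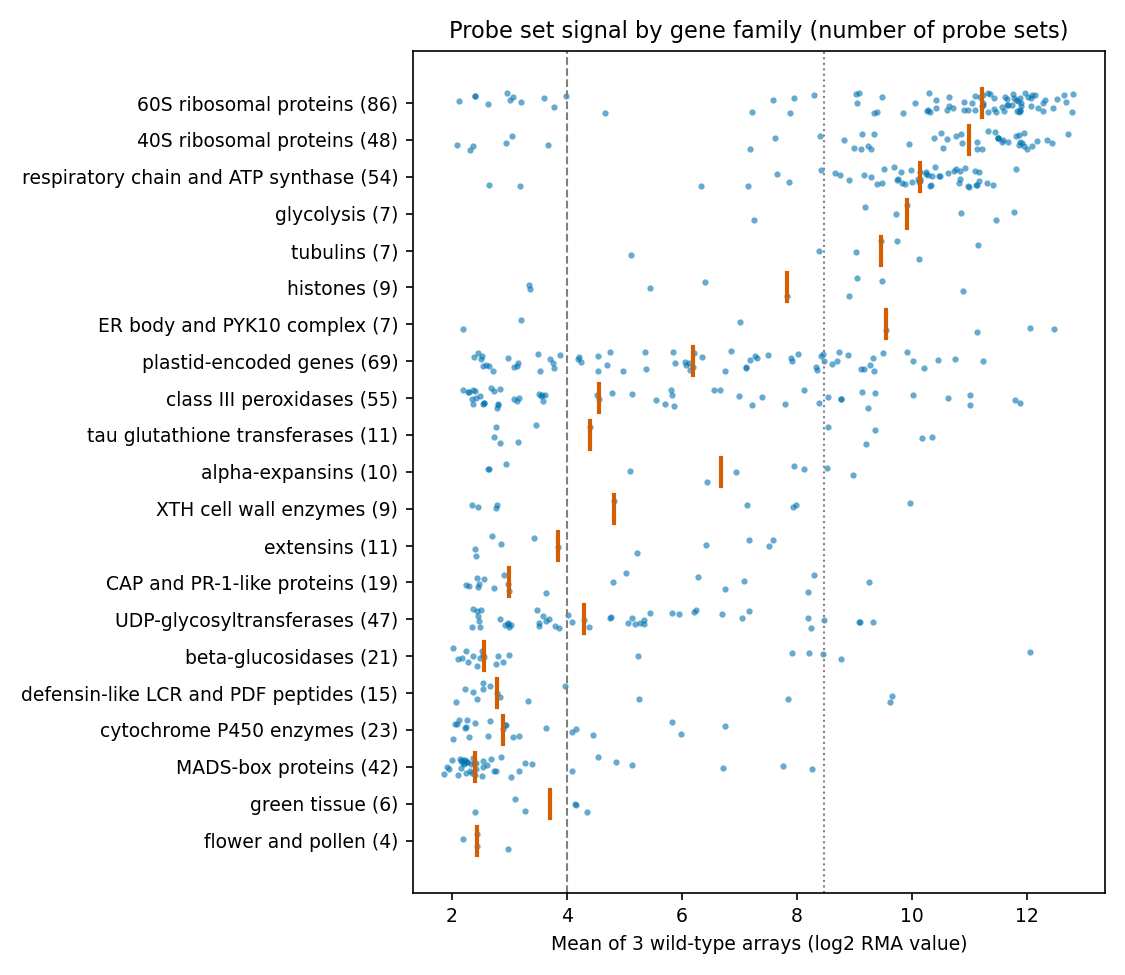
Mean over the 3 wild-type arrays of each probe set of 21 families and lists, with the number of probe sets in brackets, the median as a vertical bar, the dashed line at 4 and the dotted line at 8.47. Ribosomal proteins and the respiratory chain cluster to the right of the dotted line, plastid-encoded genes and peroxidases spread over the whole range, and MADS-box and cytochrome P450 genes lie mostly to the left of the dashed line.

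Other families held both bright members and many near background. Among all probe sets with 1 gene, 7.64% were in the brightest 10% and 44.0% near background. Class III peroxidases, secreted enzymes that use hydrogen peroxide at the wall, were measured for 55 of 73 genes. Of these, 12 were in the brightest 10% and 26, or 47.3%, near background, with a median of 4.56. AT3G01190 had 11.91, 11.86 and 11.88, AT4G30170 had 11.69, 11.78 and 11.93, and PRXR1 had 10.98, 11.02 and 11.04. The 3 arrays differed little for these named members. Some other members of the brightest 10% varied more, such as AT1G30870 with a range of 0.82 and AT5G64100 with 0.70. So did some dimmer ones described further on.

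Beta-glucosidases had a single member at the top. PYK10 stood at 12.06, the next, BGLU15, at 8.76, and 15 of 21 were near background, against 39.5% of all probe sets. Tau-class glutathione transferases, which conjugate toxic compounds to glutathione, divided evenly: 5 of 11 were in the brightest 10% and 5 near background. GSTU25 had 10.34, 10.30 and 10.44, and GSTU26 had 10.02, 10.28 and 10.23. Subtilases, secreted proteases, had 1 bright member among the 7 found by symbol, SBT4.12 at 9.65 ± 0.04 (SD, n = 3), and the other 6 were near background. Among 15 defensin-like peptides, PDF2.5 at 9.65 and LCR68 at 9.63 were in the brightest 10% and 11 were near background.

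Families that remodel the growing wall spread from background to the brightest 10%, as did probe sets with 1 gene as a whole. Of the latter, 7.64% were in the brightest 10% and 44.0% near background. Several counts below lie close to these shares. Of 10 alpha-expansins, which loosen walls, EXPA9 at 8.99 and EXPA15 at 8.53 were in the brightest 10%, EXPA7 and EXPA18 stood below that level, and 3 were near background. XTH19, a xyloglucan endotransglucosylase, had 9.94, 9.91 and 10.06 and was the only 1 of 9 in the brightest 10%, while 4 were near background. Of 15 family 9 glycosyl hydrolases, GH9B7 at 9.51 and GH9B13 at 9.17 led and 7 were near background. TBL39, of a family that acetylates wall polysaccharides, stood at 9.46 among 22 members with a median of 6.36, of which 6 were near background. Extensins, the rod-like structural glycoproteins of the wall, had a median of 3.85 over 11 genes, none in the brightest 10% and 6 near background. For extensins the repeats shared between genes make the signal of a single one uncertain.

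Genes encoded in the plastid genome spread over almost the whole range, from 2.40 for petG, a subunit of the cytochrome b6f complex, to 11.24 for atpE, a subunit of the plastid ATP synthase. Of 69 measured, 17 were in the brightest 10% and 18 near background. clpP, a protease subunit, had 10.77, 10.69 and 10.78, and rps3, a plastid ribosomal protein, had 10.26, 10.38 and 9.99. rbcL, the large subunit of Rubisco, averaged 7.27 and psbA, a core protein of photosystem II, 4.54. Plastid transcripts are mostly without a poly(A) tail, and labelling from the 3′ end is made for tailed RNA, so their signal is less certain than that of nuclear genes.

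Some families had few or no members near background. All 12 ubiquitin-specific proteases lay between 5.25 and 8.53, with a median of 6.39. Of 12 ubiquitin-conjugating enzymes, which pass ubiquitin to ligases, UBC28 was highest at 10.77, the median was 7.77 and 1 was near background. Aldehyde dehydrogenases had a median of 8.71 over 8 genes, led by ALDH7B4 at 10.19, with 1 near background. LSM proteins, which bind and process RNA, had a median of 8.00 over 6, none below 6.98. bZIP transcription factors were more divided, with 6 of 14 near background, a share close to the 39.5% of all probe sets. BZIP53, which acts in the reprogramming of amino acid metabolism, led with 9.11, 9.22 and 9.16.

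Near the middle of all probe sets the named genes were of mixed kind. The 6 nearest to the median of 5.08 were AT4G30000, AT2G32030, AT1G18090, AT2G34930, DME and AT1G20370. DME, a DNA glycosylase that removes methylated cytosine, had 4.92, 5.01 and 5.31 by that probe set, while its other probe sets averaged 3.72 and 5.71. AT1G18090 had 5.42, 4.76 and 5.05, so its arrays lay 0.66 apart, while AT2G32030 had 5.04, 5.10 and 5.09. Middle signal thus came with spreads of both small and large size.

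Several regulatory and specialised families were mostly near background, against 44.0% of all probe sets with 1 gene. Their members were found by symbol, so members named only by locus are not counted. Of 42 probe sets for 40 MADS-box genes, best known for setting floral organ identity, 35 were near background and the median was 2.41. The exceptions were led by a probe set of AGL26 with 8.26, 8.31 and 8.25, followed by AGL21 with 7.88, 7.76 and 7.64, and AGL16 with 6.64, 6.65 and 6.87. The other probe set of AGL26 was near background, at 1.92 ± 0.15 (SD, n = 3), so the level of that gene is not settled. AGL21 is known from lateral root growth. Cytochrome P450 enzymes had 17 of 23 near background, led by CYP71B6 at 6.75. SWEET sugar transporters had 9 of 14, led by SWEET16 at 6.24. All 7 cation/H+ exchangers and all 5 response regulators measured were near background. Response regulators transmit cytokinin signals, and the 5 measured, RR16, RR18, RR19, RR22 and RR23, do not include the other members of that family. The 6 lowest named genes, AT5G34990, AT1G54926, AT5G49590, AT1G42250, AT4G10830 and AT1G27790, lay between 1.75 and 1.77, below the lowest TrpnX value.

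Markers of the tissue were looked up to check the label, and many had no probe set naming them alone. Of 12 markers of the stem cell niche 3 were measured, and all lay in the middle range. JKD, a transcription factor of the niche and ground tissue, had 5.19, 5.19 and 5.29. BBM, an AP2-type regulator of the meristem, had 5.29, 5.43 and 4.89, and AGL42, a marker of the quiescent centre, had 5.31, 4.93 and 5.17. Of 21 markers of dividing cells 3 were measured. Their signal was higher, but probe sets of 1 gene differed by a median of 1.89 log2, so this ranking is approximate. PRL, the MCM7 subunit of the replicative helicase, had 7.71, 7.56 and 7.63, and the Aurora kinases AUR1 and AUR2, which act in mitosis, averaged 7.48 and 6.91.

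Markers of the root cap, root hairs and inner tissues were mostly above background. So were most probe sets of the array, with 39.5% of all near background, and few markers were measured. This check of the label is therefore weak. AT1G65570, a polygalacturonase known from the root cap, had 8.15, 8.32 and 8.55. EXPA7 and EXPA18, expansins of root hair cells, averaged 8.13 and 7.95, both above the highest bioB value. In the cortex list AT1G09750 averaged 6.55 and AT5G02000 6.14, while AT1G62500 was near background at 2.88. In the stele list LHW, a regulator of vascular cell number, averaged 7.26 and PHV, a homeodomain transcription factor, 5.83. The 1 phloem marker measured, OPS, was near background at 3.55. The endodermis and xylem lists had no probe set naming a member alone and were not checked.

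Of the markers of other organs, those measured of flower and pollen were near background, and those of green tissue and seed were divided. Of 36 green tissue genes 6 were measured. RCA, Rubisco activase, had 4.22, 4.36 and 4.47, the highest of the 6, and PRK, phosphoribulokinase, was lowest at 2.40. LHCB4.1 and LHCB4.2, light-harvesting proteins, averaged 4.16 and 4.14, so 3 of the 6 were near background. All 4 flower and pollen markers measured of 18 were near background, MGH3 at 2.97, AMS at 2.45, ANX2 at 2.44 and ANX1 at 2.20. Of the seed markers OLEO3, an oil body protein, averaged 5.24 ± 0.27, as high as the stem cell niche markers, and PAP85, a storage protein, 2.52 ± 0.18 (SD, n = 3 each).

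The spread between the 3 arrays was small for most probe sets and depended on the signal. The median SD was 0.098 log2 over all probe sets. It was 0.063 among those of at least 10, 0.124 in the middle 10% and 0.109 below 4. By steps of 1 log2 it was highest, at 0.135, between 3 and 4, and lowest, at 0.049, from 12 upwards. The range over the 3 arrays reached 1 log2 for 35 probe sets, or 0.154%, and 0.5 log2 for 1368, or 6.01%. None of the 700 probe sets of at least 10 had a range of 1 log2, and 5 had a range of at least 0.5.

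Ribosomal proteins of the brightest 10% had a median SD of 0.058, against 0.067 for all probe sets of that brightest 10%. Spread fell with signal, and all probe sets between 11 and 12, the level of the ribosomal median, had a median SD of 0.056. Of the 134 ribosomal probe sets 4 had a range of at least 0.5. AT1G36240, a large-subunit gene near background, had 3.50, 4.14 and 3.21, and AT5G28060, a small-subunit gene, had 11.23, 11.42 and 10.76. The 6 steadiest named genes of the brightest 10% had the same value on all 3 arrays to within 0.01. They were AT3G49910, named above, AT5G17190 at 10.14, and AT5G11770, a subunit of respiratory complex I, at 10.35. The others were AT2G34590, a beta subunit of pyruvate dehydrogenase, at 9.43, LTA3 at 9.14 and AT3G25470 at 9.08. RMA values that agree to every digit are common in this table. All 3 arrays were equal for 155 probe sets, and replicates 1 and 2 were equal for 990, so an SD of 0 is no measure of biological constancy.

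**Figure D3:**
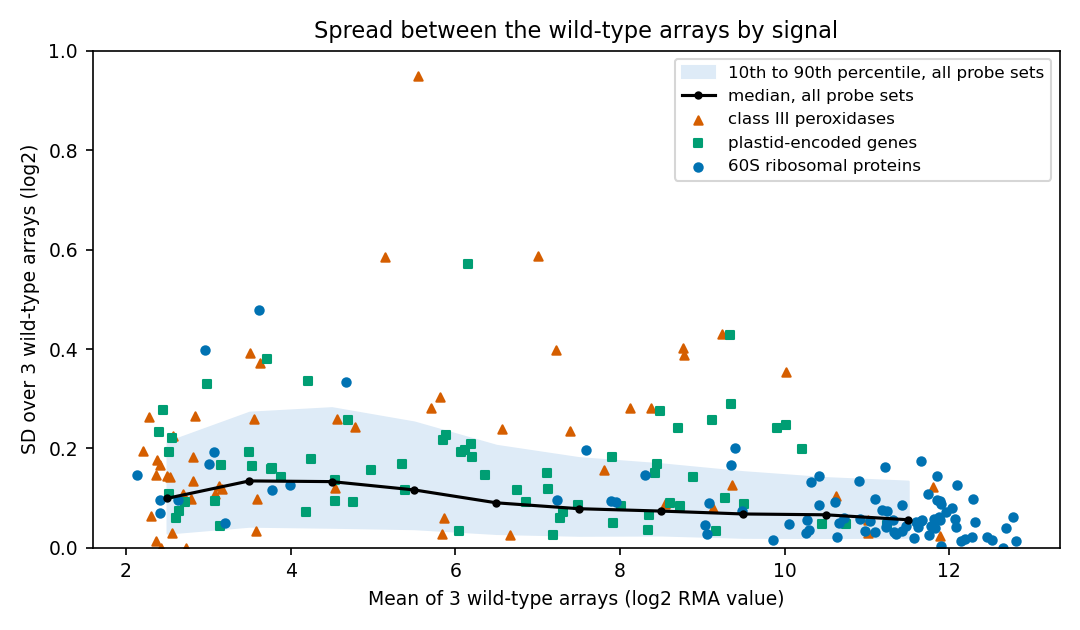
SD over the 3 wild-type arrays against their mean, both in log2, with the median of all probe sets as a line, the band from the 10th to the 90th percentile, and the members of 3 families as points. Large-subunit ribosomal proteins crowd at high signal and low SD, while several class III peroxidases lie above the band, the highest with an SD of 0.95.

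Spread among the most variable genes was mostly an excess on 1 array. Among the 25 named genes of largest SD with a mean of at least 5, replicate 3 was the highest array for 22 and the lowest for the other 3, against 39.9% and 29.8% of all probe sets. The 25 held 3 class III peroxidases and 2 extensins, of 26 and 5 among the 6248 named genes of that level. They also held 3 CAP proteins, a list made after the levels were seen, in which 8 of 19 had a mean of at least 4. Over all probe sets replicate 1 was highest for 24.9% and lowest for 34.2%, and replicate 2 for 30.5% and 30.3%. AT1G34510, a class III peroxidase, had 5.19, 4.82 and 6.62 on replicates 1, 2 and 3, and its SD of 0.95 was the largest of all. AT4G25790, of the CAP family of secreted proteins related to PR-1, had 5.92, 5.94 and 7.00. AT3G49960, a peroxidase, had 6.65, 6.67 and 7.68. In all 3 genes replicates 1 and 2 lay closer to each other than to replicate 3, which stood above them.

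Replicate 3 was also the highest array in most of the list. AT5G64120, a peroxidase linked to wall lignification, had 4.75, 4.86 and 5.82. The extensin AT4G08410 had 4.69, 5.13 and 5.83, and the extensin AT5G06630 had 6.05, 6.17 and 7.03, both from probe sets marked as sharing probes with other genes. AT5G04960, a pectin methylesterase, had 6.68, 6.82 and 7.71. The replicate 3 value was the highest for each of these wall genes.

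The rest of the list included AT5G25820, an exostosin-type glycosyltransferase, at 5.37, 5.00 and 5.98, and AT2G03980, a GDSL lipase, at 5.25, 5.15 and 6.04. AT4G30320 and AT4G25780, further CAP proteins, had 6.52, 6.44 and 7.30 and 5.01, 4.58 and 5.52. TBL41, of the wall acetylation family, had 7.27, 7.53 and 8.14. AT3G13610, the enzyme that starts scopoletin synthesis, had 5.94, 5.81 and 6.65. AT1G56300, a DnaJ chaperone, had 5.64, 6.05 and 6.77. Replicate 3 was again highest in every one of these 7 genes.

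A few genes went the other way. ndhA, a plastid-encoded subunit of the NADH dehydrogenase-like complex, had 6.56, 6.39 and 5.50. AT1G53030, a copper chaperone of cytochrome oxidase, had 5.96, 5.80 and 5.11, and AT5G23380 had 5.13, 5.42 and 4.52. For these 3 genes replicate 3 was the lowest array. Among genes with a mean below 5, the largest spread was that of AT5G38020, with 3.94, 4.25 and 5.14, then XTH33, a xyloglucan endotransglucosylase, with 4.65, 4.34 and 5.46, both highest on replicate 3.

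**Figure D4:**
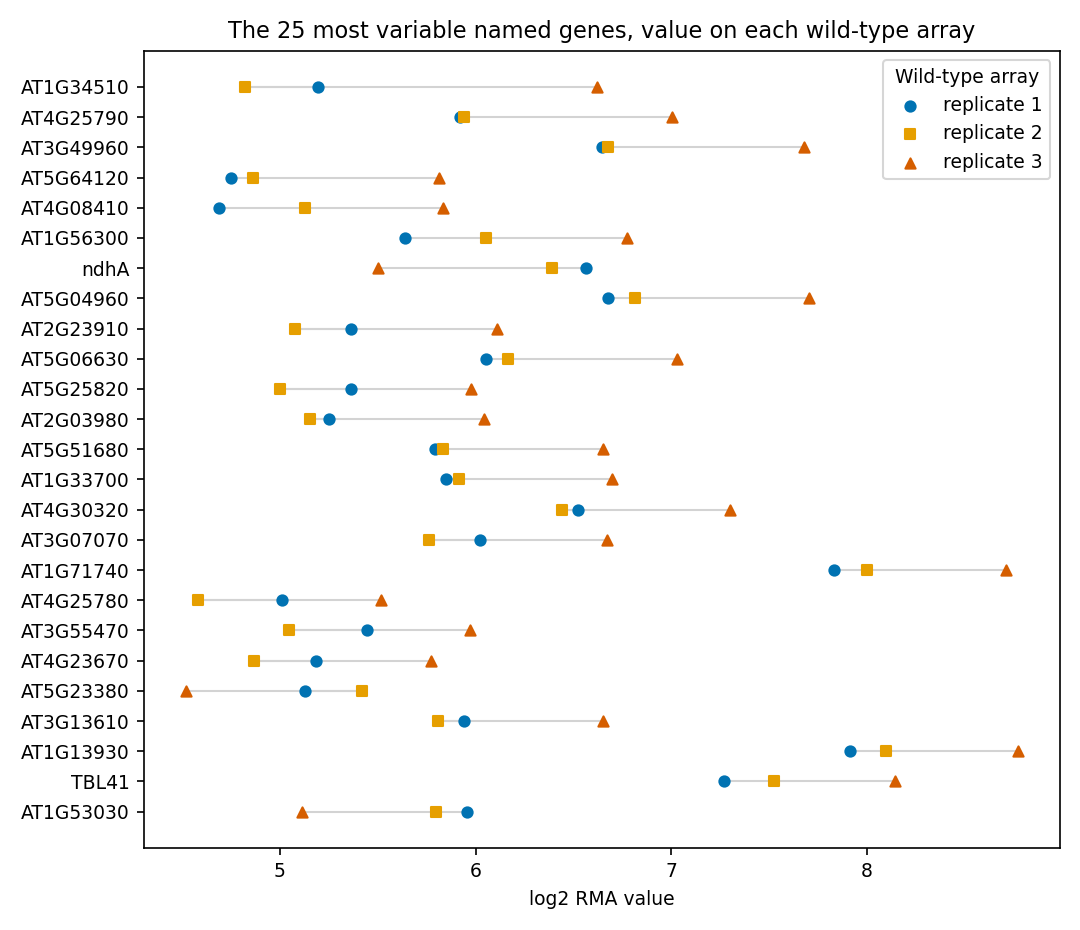
Log2 RMA value on each of the 3 wild-type arrays for the 25 named genes with the largest SD and a mean of at least 5, largest SD at the top. The triangle of replicate 3 is the rightmost point for 22 genes and the leftmost for ndhA, AT5G23380 and AT1G53030, while the circle and square of replicates 1 and 2 mostly lie near each other.

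Over the whole table more probe sets stood out upwards on replicate 3 than on either other array. Replicate 3 lay above both others by at least 0.5 log2 for 219 probe sets, or 0.963%, replicate 2 did so for 88, or 0.387%, and replicate 1 for 10, or 0.044%. Below both others by 0.5 log2 lay replicate 3 for 52 probe sets, or 0.229%, replicate 1 for 37, or 0.163%, and replicate 2 for 27, or 0.119%. Between replicates 1 and 2 a difference of at least 1 log2 occurred for 2 probe sets, against 27 between replicates 1 and 3 and 18 between replicates 2 and 3. Among the 100 named genes of largest SD replicate 3 was highest for 80 and lowest for 15.

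By family, the array deviations ran in different directions. Of 29 peroxidases with a mean of at least 4, replicate 3 was the highest array for 23 and the lowest for 4, against 5958 and 4260 of the 13757 probe sets at that level. Of all 55 peroxidases 15 had a range of at least 0.5, against 6.01% of all probe sets, and 3 of at least 1, against 0.154%. AT1G30870 had 8.90, 9.09 and 9.73, AT5G66390 had 8.47, 8.61 and 9.23, and AT5G64100 had 9.64, 10.06 and 10.35. CAP proteins had replicate 3 highest for 6 of 8 at that level. EXPA18 of the root hair list, with 7.66, 7.76 and 8.42, had its highest value on replicate 3 too, whereas EXPA7 had 8.02, 8.19 and 8.17.

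Plastid-encoded genes went the other way as a group. Of 51 with a mean of at least 4, replicate 3 was the lowest array for 39. psbM, a small subunit of photosystem II, had 9.64, 9.51 and 8.84, rpoA, a subunit of the plastid RNA polymerase, had 9.54, 9.49 and 9.01, and rps19, a plastid ribosomal protein, had 10.16, 10.16 and 9.73. Cytosolic ribosomal proteins showed a smaller shift of that kind, with replicate 3 lowest for 40 of 75 of the large subunit and 26 of 42 of the small one. The respiratory chain was level, with median deviations of 0.00 for each array. The control bioC averaged 7.44, 7.99 and 8.21 on replicates 1, 2 and 3, bioB 3.41, 3.37 and 3.77, bioD 9.53, 9.99 and 9.98, and cre 11.89, 12.21 and 12.04. So bioB and bioC were highest on replicate 3, bioD and cre on replicate 2, and of the 4 pairs of 3′ and 5′ controls 1 actin pair was largest on replicate 3. The part of hybridisation or RNA quality in the deviations of replicate 3 was not tested.

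**Figure D5:**
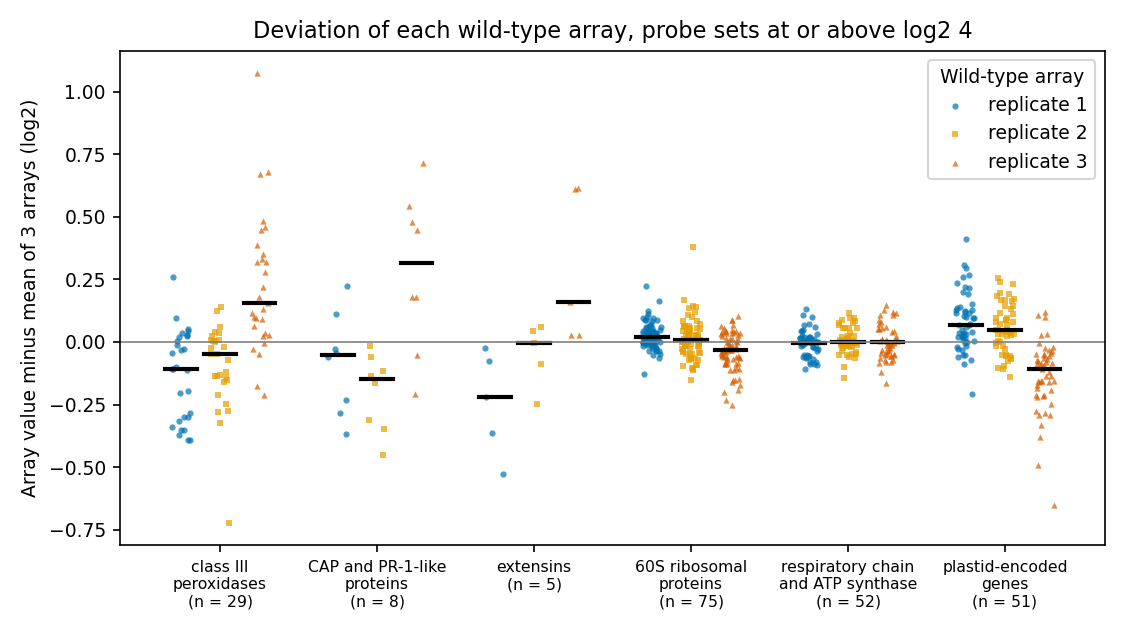
Deviation of each wild-type array from the mean of the 3, in log2, for probe sets with a mean of at least 4 in 6 families, with a bar at the median of each array. The list of CAP proteins was made after the levels were seen. Triangles of replicate 3 lie mostly above 0 for peroxidases, where it is the highest array for 23 of 29, and mostly below 0 for plastid-encoded genes, where it is the lowest for 39 of 51.

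The 8 named genes with a mean of at least 5 that differed most between replicates 1 and 2, a choice made after the values were seen, were GRX480, AT4G29780, AT5G38870, BAT1, CML38, AT2G18210, AT3G62040 and AT1G18090. GRX480, a glutaredoxin that acts in salicylate signalling, had 4.93, 5.75 and 5.33. AT4G29780, a nuclease-like protein, had 6.90, 7.65 and 7.04, and CML38, a calmodulin-like protein known to respond to wounding, had 5.21, 5.91 and 5.26. BAT1 had 4.68, 5.40 and 5.44. In AT4G29780 and CML38 replicate 2 stood alone above the other arrays, while in BAT1 replicate 1 stood alone below them. The ranges of these genes, 0.82 for GRX480, 0.75 for AT4G29780 and 0.70 for CML38, were smaller than the 1.80 of AT1G34510.

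The 25 most variable wild-type genes were also looked up in the other genotypes, for their spread only. Their median SD was 0.151 over the 3 erf115 mutant arrays, where that of all probe sets was 0.080, and 0.241 over the 3 ERF115 overexpressor arrays, where that of all probe sets was 0.099. In the wild type it was 0.485 by the choice of the genes. All probe sets are not matched to the 25 by signal, on which spread depends. In the wild type the median SD of all probe sets was 0.117 between 5 and 6 and 0.074 between 8 and 9. No matched value was computed for the other genotypes. In the overexpressor 11 of the 25 had a range of at least 0.5, against 5.83% of all probe sets, and replicate 2 was the highest array for 20. In the mutant 6 of the 25 did, against 2.66%, and replicate 3 was highest for 13. The share of all probe sets highest on those arrays was not computed, so no excess is read from the 20 and the 13. The largest overexpressor SD among the 25, 1.07, was that of AT4G23670, of the major latex protein family, with replicates at 6.28, 7.65 and 5.55, and the next was that of AT1G56300, with 5.24, 6.45 and 6.92. The highest array of AT4G23670 in the overexpressor was thus replicate 2 and in the wild type replicate 3.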

How the data were processed

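Root tips of 5-day seedlings were profiled on Affymetrix arrays. The deposited values are log2 signals, which the authors obtained with RMA in affy 1.36 according to the notes on processing that the submitters gave, for all 9 arrays. RMA sets the arrays to a common distribution, so a shift shared by most transcripts is removed and low differences are compressed. Every column of the table belonged to a sample, and no detection calls were used. Intensity files and a genome build were not used here, so no coordinate and no sequence is printed.

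The 64 control probe sets were left out. Mean, SD and range over the 3 wild-type arrays were computed with python 3.11.15, pandas 2.3.3 and numpy 2.4.6, checked on simulated data. No test was made, since 1 genotype is described. Genes were named from the platform's table, of which 13436 probe sets matched the RefSeq gene table of TAIR10.1, used for names and neighbours only. Families came from symbols or from lists of loci, and roles of loci without a symbol from general knowledge of the genome. A family found by symbol leaves out members named only by locus, so its count is not that of the whole family.

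Named genes were, among probe sets with 1 gene, the 25 highest, the 6 nearest to the median, the 6 lowest, the 25 of largest SD with a mean of at least 5, the 5 of largest SD below that, the 6 steadiest of the brightest 10% and, by family or marker list, the leading, lowest or most variable members. Members and lists were chosen with earlier results of these data known, and the CAP list after the levels were seen. Genes named beyond this rule were chosen after their values were seen. Alternatives covered normalization, summary, shared probes, cut-offs and leaving out each array. Searches of promoters and proteins were not run.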

Additional observations from a re-analysis of the deposited data

How the results depend on the processing

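The number of ribosomal proteins in the brightest 10% was 108 under each normalization tried and with the median in place of the mean. Centring the arrays leaves each mean unchanged. Quantile normalization was applied to values that RMA had already normalized, and moved levels of named genes by at most 0.013 log2. The count under these settings therefore cannot show how far it depends on normalization. With a limit of 9 or 11 in place of 10, the 700 bright probe sets became 1548 or 298, and taking the dimmest 25% as near background gave 5687 in place of 8989. The 35 probe sets with a range of 1 log2 became 1368 at a limit of 0.5, 3 at 1.5, and 19 among those with a mean of at least 5. Leaving out 1 array gave between 2 and 27, with 2 without replicate 3 and 18 without replicate 1. Of the 25 most variable named genes, between 0 and 18 were again among the 25 when 1 array was left out, with 0 without replicate 3 and 16 without replicate 2, so that list rests on replicate 3. Without replicate 3 the median level of a family moved by at most 0.32 log2. In 54 of 56 cases this was within the SD of the 3 arrays. That SD includes replicate 3 itself, so the limit could hardly be passed and says little about dependence on it. The extensin median was 2.87 without probe sets that mark shared probes, against 3.85 with them. No paired analysis was possible because 1 genotype is described and no test was made. Deviations of same-numbered arrays correlated, across probe sets, at 0.14, 0.12 and 0.10 between wild type and mutant. Differently numbered arrays of these genotypes correlated at -0.08 to -0.04. Between wild type and overexpressor, same-numbered arrays correlated at 0.06, -0.21 and -0.08. The highest value there, 0.28, was that of wild-type replicate 3 with overexpressor replicate 2. These values do not settle whether the numbers pair the samples, and they were not taken to do so. With 3 arrays an SD is itself imprecise, and no depth can be given for an array.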

Other observations

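Genes that lie side by side in the gene table were compared as a description, over 5818 neighbouring pairs in which both had a probe set. Of the 107 loci with replicate 3 above both other arrays by at least 0.5 log2, 4 pairs were neighbours. A neighbour of such a locus was itself in that set in 7.84% of cases, against 0.877% over all neighbours. The pairs were the CAP genes AT4G25780 and AT4G25790, tny with the exostosin gene AT5G25820, AT5G37540 with AT5G37550, and AT5G38020 with AT5G38030. tny, an AP2-type transcription factor, had 6.10, 6.18 and 6.73 on replicates 1, 2 and 3. AT5G38030 had 3.93, 4.05 and 4.65. Related neighbours may share probes, which was not tested. For the brightest 10% the share was 9.90% against 8.34%, and for probe sets below 4 it was 46.7% against 39.8%.

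Families not described above lay at different levels. The shares to set beside their counts, over all probe sets with 1 gene, were 7.64% in the brightest 10% and 44.0% near background. Of 10 RALF-like peptides, which signal through receptor kinases at the wall, RALFL33 at 8.89 and RALFL34 at 8.60 were in the brightest 10% and 4 were near background. Of 47 UDP-glycosyltransferases, which attach sugars to small molecules, UGT85A2 at 9.32 led, 4 were in the brightest 10% and 21 near background. These counts, 8.51% and 44.7%, were close to the shares of all probe sets with 1 gene. WRKY6 at 7.56 was the brightest of 6 WRKY transcription factors, 1 of them near background, and IAA18 at 5.34 the brightest of 7 Aux/IAA repressors of auxin signalling, 4 of them near background. Autophagy proteins had a median of 7.15 over 8 genes, led by ATG8H at 8.13, with 1 near background.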
